A study of Homo sapiens with 10 samples.

Results

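Integrins are adhesion receptors, and 10 of their subunit genes are described here in RS4;11 leukemia lines that were sensitive (VEN sens) or insensitive (VEN ins) to venetoclax. ITGB5 was selected on the data themselves, for its lower counts in the VEN ins lines. ITGAV, ITGB1, ITGA4, ITGA5, ITGA6, ITGB2, ITGAL, ITGB7 and ITGB3 were chosen by their role, as partner chains of the same family or as integrins of leukocytes. The 10 genes stand among 26 integrin alpha and beta subunits and 63677 gene identifiers in the count data. Since ITGB5 was picked on the contrast between the lines, its values are given as a description with no test.

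Each integrin is a pair of an alpha and a beta chain, and a chain reaches the cell surface only with a partner. The receptors bind matrix proteins such as fibronectin, laminin and vitronectin, or surface proteins of other cells such as VCAM-1 and ICAM-1. Talin and kindlin bind the tail of the beta chain and switch the receptor to its high-affinity form. In B cell precursor leukemia, VLA-4 (ITGA4 with ITGB1) is known for holding the blasts to bone marrow stroma, and LFA-1 (ITGAL with ITGB2) is the main leukocyte receptor for ICAM-1.

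RNA-Seq was performed on 10 lines that all came from RS4;11, an established line of B cell precursor acute lymphoblastic leukemia. The 5 VEN ins lines had been exposed to rising doses of venetoclax, a small molecule that blocks BCL-2, and the 5 VEN sens lines to the solvent DMSO. There is 1 library per line, so the spread within a group holds the differences between lines and those of preparation together. Because only the VEN ins lines were grown with the drug, exposure and acquired insensitivity cannot be told apart. Between 20631907 and 28323643 reads per library were counted on genes. VEN ins line 5 was the library least like the others, with a median Spearman correlation of 0.9933 with the other 9 libraries, next to 0.9935 for VEN sens line 2 and 0.9958 at most. For PAX5 and the integrin subunits, calls that turned on leaving out a line number are therefore given.

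The lines carried the markers of their labelled cell type. All 12 pro-B leukemia markers passed the filter on low counts, and their summed level was 3876 to 4337 CPM (the usual read count relative to library size, here with TMM scaling by edgeR) in the 10 libraries. Per kilobase of exon the most abundant were IGLL1 and VPREB1, the parts of the surrogate light chain, at 800 and 782 CPM per kilobase. The list moved both ways, with 7 markers higher and 5 lower in VEN ins lines, 3 of each at an unadjusted p under 0.05, and a median log2 fold change of 0.05. Of the 12, 1 was called. Over all 16756 tested genes, 16.2% had such a p and 0.197% were called. PAX5, the transcription factor that maintains B cell identity, fell from 783 ± 42.9 CPM in VEN sens to 631 ± 34.7 in VEN ins lines (SD, n = 5), with a log2 fold change of -0.31 ± 0.05 (SE) and an adjusted p of 0.0272. It passed in 13 of 18 alternative fits and, with the block kept, missed the threshold without line 2, 3 or 5 (adjusted p 0.242, 0.0597 and 0.0647). In edgeR without the block PAX5 passed with all lines (adjusted p = 0.00967) and missed the threshold without line 1 or 2 (0.0574 and 0.0976). DNTT, also on the pro-B list, was low and uneven, at 5.02 ± 2.25 CPM in VEN sens and 7.02 ± 11.35 in VEN ins lines (SD). It had 23 to 694 counts per library. Markers of other cells were low, though PDGFRB (mean 13.95 CPM) and CSF1R (9.51) lay above both group means of DNTT. The summed T cell markers were 0.692 to 1.08 CPM with CD3E the most abundant per kilobase, and the myeloid markers 7.41 to 12.6 CPM, where CSF1R led per kilobase. Platelet and erythroid markers summed to 2.74 to 4.40 CPM, with GP9 at a mean of 3.47 CPM, while PF4, PPBP and HBA1 were at 0 in every library. Stromal and endothelial markers summed to 16.4 to 22.1 CPM, with PDGFRB first per kilobase, and epithelial markers to 1.13 to 1.89 CPM with EPCAM at 0. In RNA from whole cultures, fewer cells of a type and less RNA per cell cannot be told apart.

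ITGB5, the beta 5 chain that pairs with ITGAV to bind vitronectin, had fewer counts in every VEN ins line, which is how it was selected. It was counted 403, 357, 477, 425 and 461 times in VEN sens lines 1 to 5, or 16.8, 17.3, 16.8, 18.4 and 18.4 CPM. In VEN ins lines 1 to 5 it was counted 136, 199, 226, 279 and 239 times, or 6.39, 8.13, 9.19, 11.0 and 10.4 CPM. The groups did not overlap, and VEN ins line 1 held the lowest value. The means were 17.5 ± 0.823 and 9.02 ± 1.83 CPM (SD, n = 5), a log2 difference of -0.97 that lay between -1.03 and -0.87 in all 18 alternative fits. The coefficient of variation was 4.70% among VEN sens lines and 20.3% among VEN ins lines.

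**Figure D1:**
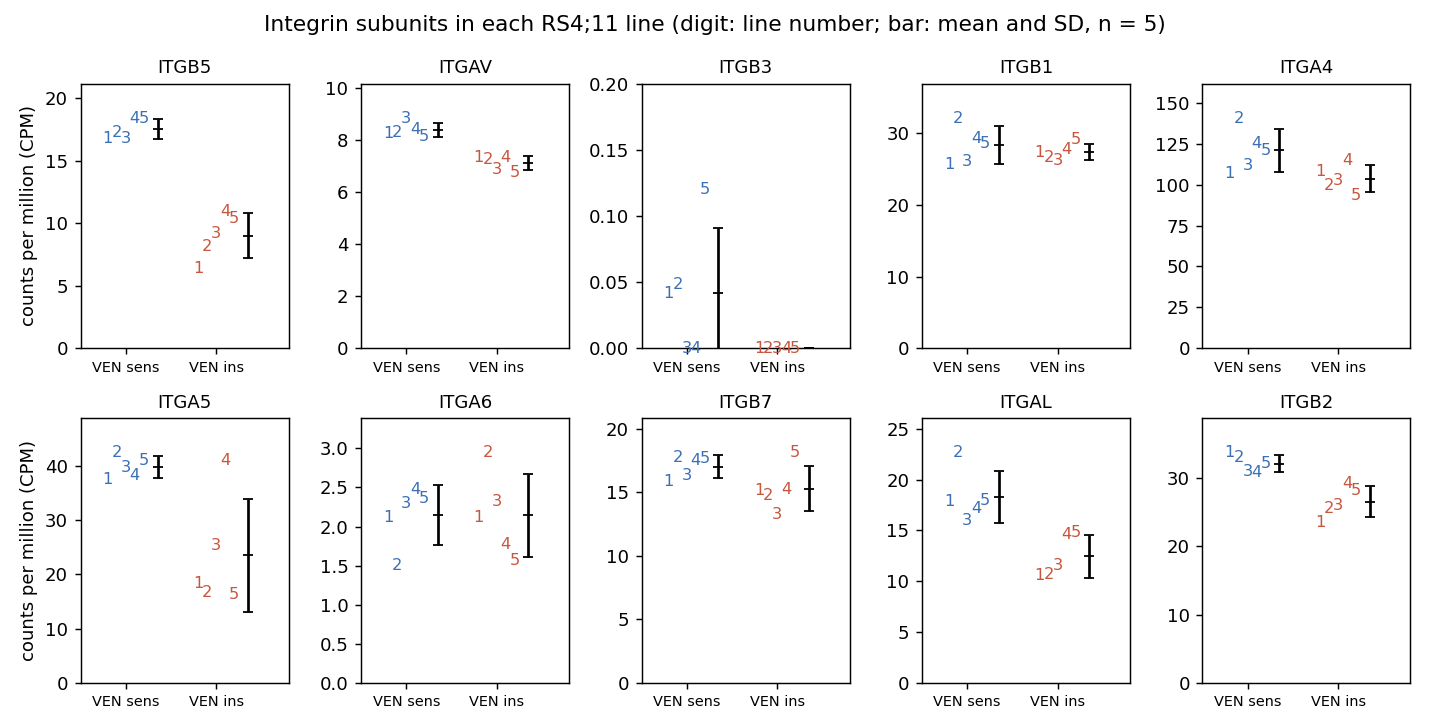
CPM (y axis, from 0, a separate scale for each gene) of the 10 members in each VEN sens (blue) and VEN ins (red) line. Digits are line numbers and the bar is the mean and SD of 5 lines. The digits of the groups are apart for ITGB5, ITGAV, ITGAL and ITGB2, and VEN ins line 4 sits at 41.1 CPM in the ITGA5 panel.

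RefSeq promoter windows were found for 7 of the 10 members (ITGB5, ITGAV, ITGB1, ITGA4, ITGA5, ITGA6 and ITGB7). Where RefSeq lists several starts, the window nearest to the start of the principal GENCODE 29 transcript was taken. The 250 bases before the start are shown for ITGB5 and, for comparison, for its partner ITGAV and for ITGB1, whose mean moved least among the beta chains. Only these 3 windows overlapped annotated exons by 30 bases or fewer. They lie at chr3:124887366-124887615 (minus strand), chr2:186589806-186590055 (plus strand) and chr10:32958231-32958480 (minus strand) of GRCh38.p14, with capitals marking GGGCGG, the GC box, on either strand.
ITGB5: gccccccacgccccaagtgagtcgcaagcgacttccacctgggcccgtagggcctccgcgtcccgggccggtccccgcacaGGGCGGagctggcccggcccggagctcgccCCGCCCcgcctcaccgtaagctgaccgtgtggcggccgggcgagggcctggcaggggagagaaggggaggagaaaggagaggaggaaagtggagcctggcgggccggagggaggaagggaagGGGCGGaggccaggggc
ITGAV: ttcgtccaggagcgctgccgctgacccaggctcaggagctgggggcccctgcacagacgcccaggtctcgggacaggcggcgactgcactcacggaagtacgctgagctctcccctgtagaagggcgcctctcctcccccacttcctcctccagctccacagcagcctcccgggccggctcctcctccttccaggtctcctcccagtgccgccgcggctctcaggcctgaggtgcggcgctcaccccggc
ITGB1: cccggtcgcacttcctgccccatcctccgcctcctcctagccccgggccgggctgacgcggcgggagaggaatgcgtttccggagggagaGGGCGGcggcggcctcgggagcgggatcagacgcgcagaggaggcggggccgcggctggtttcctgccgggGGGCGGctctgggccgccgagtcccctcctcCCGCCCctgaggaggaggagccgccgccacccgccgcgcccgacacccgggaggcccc
The GC box was found 3 times in the ITGB5 window, 3 times in that of ITGB1 and 0 times in that of ITGAV, and 42.6% of 35116 RefSeq windows of this length hold it. The other motifs searched on both strands were TATAAA (10.7% of windows), CCGGAAG (8.52%), CACGTG (6.35%), TGACGTCA (1.65%) and CCAAT (32.0%), and none of these letters were in the 3 windows. The windows were 75.2%, 70.8% and 78.4% G and C, against a median of 58% for all windows. A match describes the letters and is no evidence of binding.

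The genes around ITGB5 on chromosome 3 did not pass the test. On the GENCODE 29 map of GRCh38, the nearest tested protein-coding genes on one side were CCDC14, KALRN and UMPS, and on the other HEG1, SLC12A8 and ZNF148. Their log2 fold changes were 0.07, -0.06, -0.01, -0.37, -0.21 and -0.16, and the smallest adjusted p was 0.262, for HEG1. ITGB5-AS1, the antisense gene within ITGB5, had at most 1 count in a library and shared no exon bases with it.

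The genes most like ITGB5 were sought by the deviations of log2 CPM from the condition means over the 10 libraries, among 11137 other protein-coding genes with a mean of at least 1 CPM. The highest Pearson r belonged to TCTN2 (0.937), DNASE2 (0.923), KCNMB3 (0.915), RRAS2 (0.913) and THAP3 (0.909), and 9 genes reached 0.9. Within the family, r with ITGB5 was 0.835 for ITGB2, 0.677 for ITGAL, 0.507 for ITGA5, 0.316 for ITGB7, 0.248 for ITGB1, 0.0320 for ITGA4, -0.35 for ITGA6 and -0.40 for ITGAV. For the other subunits at this level it was 0.624 (ITGA7), 0.562 (ITGA2B), 0.391 (ITGA10), 0.386 (ITGA9), 0.35 (ITGB4), 0.12 (ITGAM) and -0.24 (ITGAE). These values describe 10 libraries, and all genes of a library share its depth and preparation. ITGB5 varied more among VEN ins lines (coefficient of variation 20.3%) than among VEN sens lines (4.70%), so r rests mainly on the VEN ins libraries.

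ITGAV and ITGB3 are the vitronectin receptor chains beside ITGB5. ITGAV, which pairs with ITGB5, ITGB3 or ITGB1, was measured at 8.24, 8.29, 8.84, 8.41 and 8.14 CPM in VEN sens and at 7.33, 7.23, 6.88, 7.31 and 6.75 CPM in VEN ins lines 1 to 5. All VEN ins lines lay below all VEN sens lines, but the log2 fold change of -0.24 ± 0.09 (SE) did not pass the test (adjusted p = 0.208). ITGB3, the beta 3 chain of platelets and osteoclasts, was counted 1, 1, 0, 0 and 3 times in VEN sens and 0 times in each VEN ins line. It failed the filter on low counts, and no fold is given at this depth. A readthrough gene, AC068234.1, covers 51.6% of the ITGB3 exon bases and had 0 counts, so reads that fit both genes may be missing from ITGB3.

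ITGB1 is the common beta chain of the VLA receptors. It was measured at 25.7, 32.1, 26.1, 29.3 and 28.5 CPM in VEN sens and at 27.3, 26.6, 26.2, 27.7 and 29.1 CPM in VEN ins lines. The groups overlapped fully, with a log2 fold change of -0.05 ± 0.07 (SE, adjusted p = 0.799). ITGA4, its partner in VLA-4, was measured at 107, 141, 112, 125 and 121 CPM in VEN sens and at 108, 99.3, 102, 115 and 93.4 CPM in VEN ins lines. Its log2 fold change was -0.22 ± 0.07 (SE) and did not pass the test (adjusted p = 0.155). ITGA6, the laminin-binding chain of VLA-6, was low, at 31 to 72 counts per library, and its log2 fold change was -0.02 ± 0.20 (SE, adjusted p = 0.978). ITGB7, which pairs with ITGA4 in the gut-homing receptor LPAM-1, ranged from 15.9 to 17.8 CPM in VEN sens and from 13.3 to 18.1 CPM in VEN ins lines (log2 fold change -0.16 ± 0.08 (SE), adjusted p = 0.326). ZNF740 lies on the opposite strand across 42.1% of the ITGB7 exon bases. The library kit does not mark strand, so reads there cannot be told apart, and the ITGB7 values are uncertain.

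ITGA5, the fibronectin-binding chain of VLA-5, was the only one of the 9 other members that passed the test in the fit with the line number as a block. It was counted 901, 876, 1129, 881 and 1030 times in VEN sens lines 1 to 5, or 37.5, 42.4, 39.8, 38.2 and 41.1 CPM. In VEN ins lines 1 to 5 it was counted 389, 406, 621, 1045 and 376 times, or 18.3, 16.6, 25.3, 41.1 and 16.4 CPM. VEN ins line 4 lay inside the VEN sens range and the other 4 VEN ins lines lay below it. ITGA5 fell from 39.8 ± 2.04 to 23.5 ± 10.4 CPM (SD, n = 5). The log2 fold change was -0.84 ± 0.16 (SE, adjusted p = 0.0425 by edgeR), which is the value fitted with the block and not the fold of these means. The call is close to the threshold of 0.05. It was lost without the block (-0.75, adjusted p = 0.0602) and, with the block, when line 1, 2, 3 or 5 was left out (adjusted p 0.0585 to 0.429). Without line 4 the log2 fold change was -1.09 with the block (adjusted p = 2.25e-05) and -1.07 with no block (adjusted p = 0.000182). ITGA5 was called in 6 of 18 alternative fits, with adjusted p from 4.34e-23 to 0.429, and was lower in all 18. The lowest adjusted p values quoted here and for ITGAL and ITGA2B come from the fit with no filter on low counts. There edgeR gave every gene the variance of the trend. These values leave out how far the gene itself varied between lines and are not relied on.

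ITGAL and ITGB2 form LFA-1. ITGAL was measured at 17.8, 22.6, 16.0, 17.1 and 17.9 CPM in VEN sens and at 10.5, 10.7, 11.6, 14.6 and 14.8 CPM in VEN ins lines 1 to 5. The groups did not overlap, and VEN sens line 2 was the highest. The log2 fold change was -0.56 ± 0.11 (SE) and missed the threshold in the fit with the block (adjusted p = 0.0552). It passed without the block (adjusted p = 0.0379) and in 9 of 18 alternative fits, over which the adjusted p ran from 4.13e-07 to 0.429. With the block it passed when line number 4 was left out (-0.64, adjusted p = 0.00440) and with no other line number left out. Without the block the call was lost when line 1, 2 or 3 was left out (adjusted p 0.111, 0.263 and 0.0878). ITGB2, the common beta chain of the leukocyte integrins, was measured at 33.7, 33.0, 31.0, 30.8 and 32.2 CPM in VEN sens and at 23.5, 25.6, 26.1, 29.3 and 28.2 CPM in VEN ins lines. Here too all VEN ins lines lay below all VEN sens lines, while the log2 fold change of -0.28 ± 0.07 (SE) had an adjusted p of 0.0991. ITGB2 was lower in all 18 alternative fits and passed in 4, with adjusted p from 0.00508 to 0.518. These were the fits without line 4 (adjusted p 0.0467 with the block and 0.0241 without it) and DESeq2 without the block (0.00508). The other was the fit with no filter (0.0227), which did not use the variance of ITGB2 itself. ITGA4 and ITGAX passed in the fit with no filter alone.

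**Figure D2:**
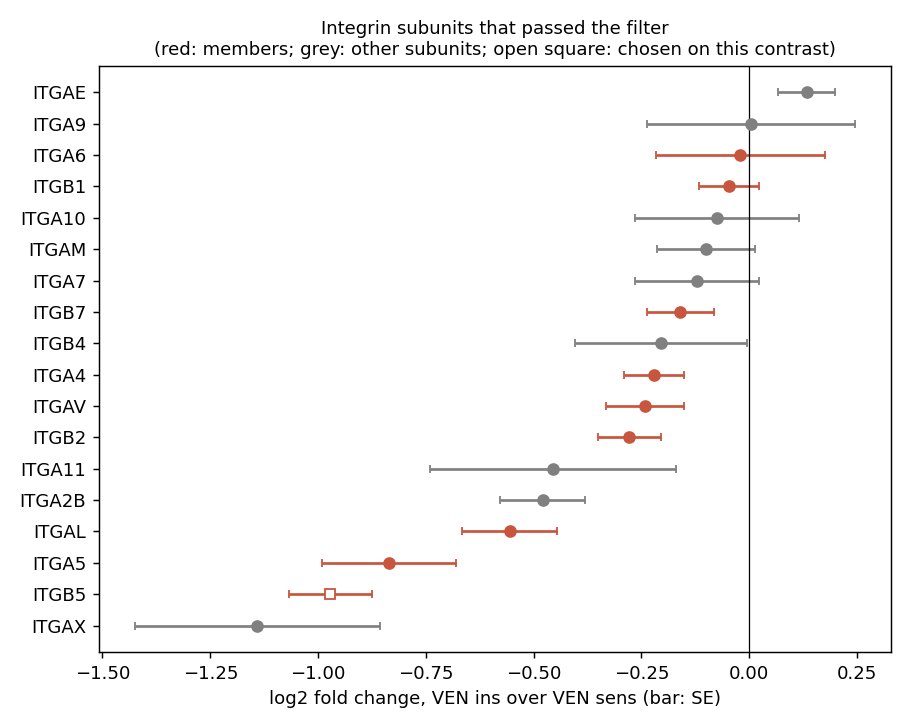
Log2 fold change of VEN ins over VEN sens (x axis) with its SE for the 18 integrin subunits that passed the filter (y axis), from the edgeR fit with the line number as a block. Members are red, other subunits grey, and the open square is ITGB5, which was chosen on this contrast. The bar of ITGB5 comes from that same contrast, so it is no test and no measure of how certain the difference is. ITGA5 at -0.84 is the only filled point with an adjusted p under 0.05.

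Of the 9 members other than ITGB5, 8 passed the filter and 1 (ITGA5) was called, where 0.197% of all 16756 tested genes were called (33 genes, 27 of them lower in VEN ins). The fit without the block called 1 member (ITGAL) and 0.889% of all genes, and DESeq2 with the block called 1 (ITGAL) and 1.69% of the genes it gave an adjusted p. In 3 of the 8 (ITGAV, ITGB2 and ITGAL) all VEN ins lines lay below all VEN sens lines, which was the case for 2.30% of all tested genes. The median log2 fold change of the 8 was -0.23, beside 0.00 for all tested genes. As the members were chosen with earlier results known, these counts describe the list and were given no test.

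The balance of the chains was compared as the log2 ratio of alpha to beta counts per kilobase in each library, with a two-sided exact permutation test of 5 against 5 lines for 6 pairs. A pair passed at an adjusted p under 0.05 over the 6 ratios, and 2 did. The test does not use the line numbers, and with an exact paired sign-flip permutation over the 5 numbers neither passed (adjusted p = 0.188 for both, at the smallest p that 5 pairs can give). For VLA-4, the log2 ratio of ITGA4 to ITGB1 was 1.67, 1.74, 1.70, 1.70 and 1.69 in VEN sens and 1.59, 1.51, 1.57, 1.66 and 1.29 in VEN ins lines. It was lower in VEN ins by 0.17 on average, with no overlap (difference -0.17, exact p = 0.00794, the smallest these groups can give, adjusted p = 0.0476). The gap is narrow, from 1.67 in VEN sens line 1 to 1.66 in VEN ins line 4, and without line number 5 the difference was -0.12. For LFA-1, the log2 ratio of ITGAL to ITGB2 was -0.85, -0.48, -0.89, -0.78 and -0.77 in VEN sens and -1.09, -1.19, -1.10, -0.93 and -0.86 in VEN ins lines. The groups overlapped slightly, and the difference was -0.28 (exact p = 0.0159, adjusted p = 0.0476), or -0.17 without line number 2. With 4 lines a group the exact test cannot go below p = 0.0286, and neither ratio passed once any line number was left out.

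The other 4 ratios did not pass. VLA-5 (ITGA5 to ITGB1) differed by -0.81 and ITGAV to ITGB1 by -0.19, each with an exact permutation p of 0.0397 and an adjusted p of 0.0595. VLA-6 (ITGA6 to ITGB1) differed by 0.03 (adjusted p = 0.905 by the exact permutation test) and LPAM-1 (ITGA4 to ITGB7) by -0.06 (adjusted p = 0.848). The sign of both depends on 1 line number, with -0.27 for VLA-6 without line 2 and 0.03 for LPAM-1 without line 5, and neither passed. LPAM-1 also rests on the ITGB7 values, which are uncertain because of ZNF740. The log2 ratio of ITGAV to ITGB5 uses the values that chose ITGB5 and is a description. It was -1.37, -1.41, -1.28, -1.48 and -1.53 in VEN sens and -0.15, -0.52, -0.77, -0.93 and -0.97 in VEN ins lines. In every library ITGB5 had more counts per kilobase than its alpha chain ITGAV.

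**Figure D3:**
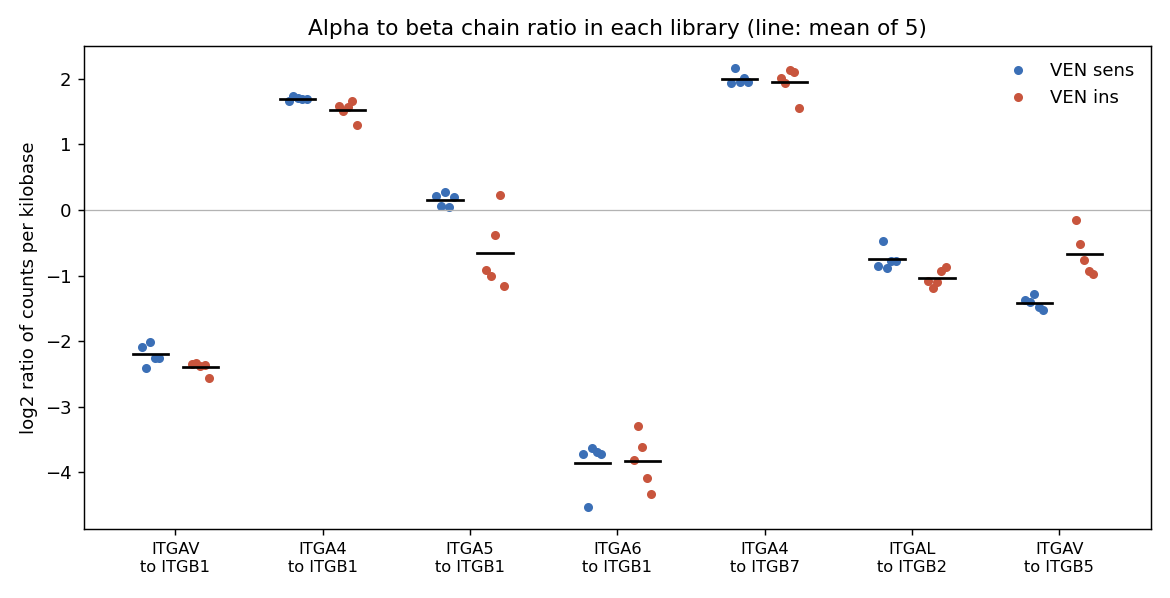
Log2 ratio of alpha to beta counts per kilobase (y axis) in each VEN sens (blue) and VEN ins (red) library for 7 chain pairs (x axis), with lines at the mean of 5. The means of ITGA4 to ITGB1 differ by -0.17, with 1.67 the lowest VEN sens and 1.66 the highest VEN ins library, and ITGAV to ITGB5, shown as a description, is nearer 0 in VEN ins lines.

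Levels of the integrin subunits were compared per kilobase of exon. ITGA4 was the most abundant subunit in VEN sens lines, at 15.3 ± 1.66 CPM per kilobase (SD, n = 5), and its range lay above that of every other subunit. ITGA2B (7.57), ITGA5 (5.25), ITGB2 (4.73) and ITGB1 (4.72) followed in CPM per kilobase, and the ranges of ITGA5, ITGB2 and ITGB1 overlapped. ITGB7 (3.80) and ITGAE (3.44) came next, then ITGAL (2.83) and ITGB5 (2.72), and each of these overlapped the next in range. The level and rank of ITGB7 are uncertain, as ZNF740 lies across 42.1% of its exon bases. ITGAV was at 1.02 and ITGA6 at 0.329 CPM per kilobase. With the longest transcript in place of all exons, ITGB2 and ITGB1 changed places and so did ITGAL and ITGB5, and the other 14 ranks were kept. In VEN ins lines ITGB5 was at 1.40 ± 0.284 and ITGAL at 1.92 ± 0.324 CPM per kilobase.

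**Figure D4:**
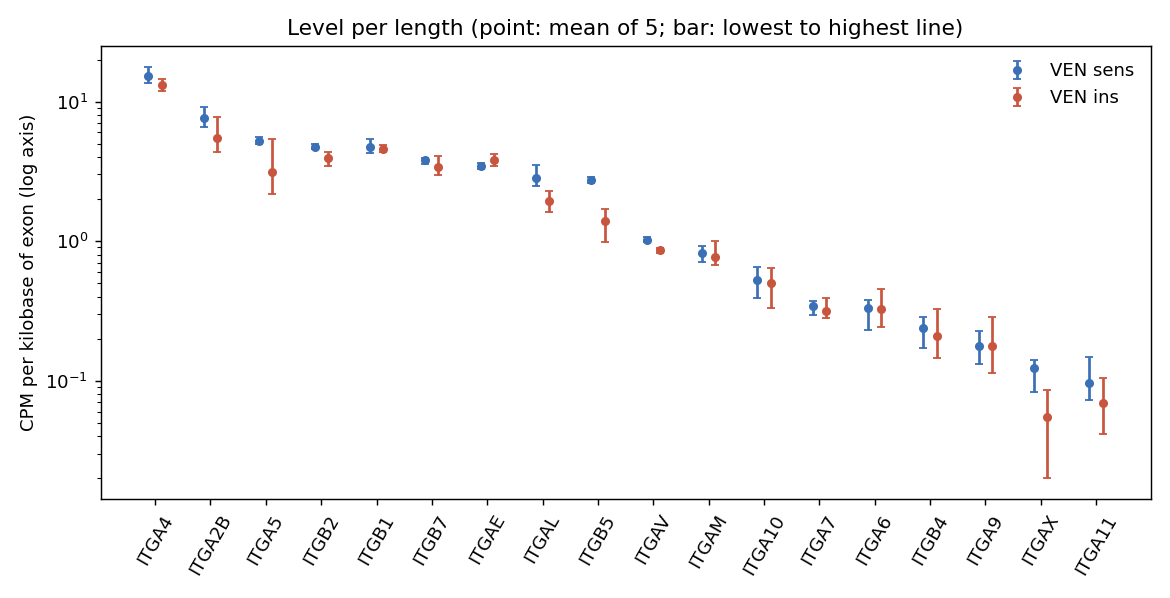
CPM per kilobase of exon (y axis, log scale) of the 18 integrin subunits that passed the filter (x axis), ordered by their level in VEN sens lines. Points are means of 5 lines (VEN sens blue, VEN ins red) and bars run from the lowest to the highest line. ITGA4 stands above all other subunits in both groups.

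The 9 other integrin subunits that passed the filter had 0 calls by edgeR with the block, 2 at an unadjusted p under 0.05 (as were 16.2% of all 16756 tested genes) and 1 call (ITGA2B) by DESeq2 with the block. ITGA2B, the alpha chain known from platelets, was measured at 36.6, 50.5, 38.7, 44.4 and 39.9 CPM in VEN sens and at 24.3, 30.3, 24.7, 30.7 and 42.9 CPM in VEN ins lines. VEN ins line 5 lay inside the VEN sens range. The log2 fold change was -0.48 ± 0.10 (SE, adjusted p = 0.0610), and it passed in 6 of 18 alternative fits (adjusted p 1.10e-07 to 0.484). Without line 5 the log2 fold change was -0.63, with an adjusted p of 0.00164 with the block and 0.0198 without it. With the block ITGA2B also passed without line 4 (adjusted p = 0.0329), and with all lines and no block it missed the threshold (0.0800). Its known partner ITGB3 was nearly uncounted in the same libraries, at 5 counts in all. ITGAX, the alpha X chain of myeloid cells, rested on 3 to 26 counts per library (log2 fold change -1.14 ± 0.28 (SE), adjusted p = 0.0967), and ITGAE, the partner of ITGB7, was at 0.13 ± 0.07 (SE, adjusted p = 0.338). ITGA7, ITGA9, ITGA10, ITGA11, ITGAM and ITGB4 had adjusted p from 0.456 to 0.997. ITGA1 and ITGB6 were at 0 counts in every library.

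Genes that work with integrins were taken from 7 lists of ligands, activators, inhibitors, adhesion complexes, lateral partners and trafficking. With the other integrin subunits they held 147 genes that are not members, of which 111 were tested. None passed the test in edgeR with the block, and 22 had an unadjusted p under 0.05, beside 2710 (16.2%) of all 16756 tested genes. Without the block edgeR called 3 (SKAP2, CYTH1 and TNS3), where it called 0.889% of all tested genes. DESeq2 with the block called 3 (SKAP2, CYTH1 and ITGA2B), beside 1.69% of all genes it gave an adjusted p. With the block kept and line 1, 2, 3, 4 or 5 left out, edgeR called 0, 0, 0, 7 and 1 of the list genes, beside 57, 6, 17, 331 and 9 of all tested genes. The 7 without line 4 included SKAP2, CYTH1, ACTN1 and MFGE8, and the 1 without line 5 was ITGA2B. With no block, the same omissions gave 0, 0, 0, 7 and 1 list genes, beside 18, 7, 14, 391 and 91 of all tested genes. The calls of SKAP2, CYTH1 and TNS3 without the block were kept without line 4 and lost without line 1, 2, 3 or 5. Median log2 fold changes of the 7 lists lay between -0.06 and -0.01, beside 0.00 for all tested genes.

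Among the activators (14 of 18 tested), SKAP2, an adaptor in the pathway to talin recruitment, was measured at 52.8 ± 2.57 CPM in VEN sens and 70.6 ± 9.93 in VEN ins lines (SD, n = 5), with a log2 fold change of 0.41 ± 0.08 (SE, adjusted p = 0.0552, or 0.0336 without the block). CYTH1, which binds the ITGB2 tail, had -0.24 ± 0.05 (adjusted p = 0.0777, or 0.0382 without the block) and RAPGEF1, an exchange factor for RAP1, had -0.15 (adjusted p = 0.210). Among the inhibitors (9 of 10 tested) the smallest adjusted p was 0.175, for DOK2 (0.38 on the log2 scale), followed by ITGB1BP1 (0.17). In the adhesion complex list (29 of 32 tested), TNS3, a tensin, was at -0.58 (adjusted p = 0.0691, or 0.0423 without the block), and the actin linkers ACTN1 and VCL at -0.26 (adjusted p = 0.150) and -0.17 (adjusted p = 0.185) on the log2 scale.

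No ligand, lateral partner or sorting gene passed in edgeR with the block. Of the matrix ligands, 12 of 28 were tested, and LAMC1 (laminin gamma 1) was at -0.21 on the log2 scale (adjusted p = 0.130). MFGE8, a ligand of ITGAV receptors, was at -0.27 (adjusted p = 0.146) and TGFB1 at 0.20 (adjusted p = 0.416). Of the cell surface ligands, 11 of 14 were tested, and F11R, ADAM17 and JAM2 had the smallest p, with log2 fold changes of -0.16, -0.12 and 0.13. ICAM3, a ligand of LFA-1, was the most abundant of them, at 48.4 CPM per kilobase. All 14 tetraspanins and lateral partners were tested, and CD63 (0.16), CD47 (-0.09) and CAV1 (0.53) led by p on the log2 scale, with a smallest adjusted p of 0.245. Of the trafficking genes, 13 of 15 were tested, and RAB11FIP1, RAB4A and RABGAP1 had log2 fold changes of -0.24, 0.26 and -0.15, with a smallest adjusted p of 0.139.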

How the data were processed

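Libraries of 10 RS4;11 lines were sequenced, and the authors deposited raw counts of reads per Ensembl gene, with 5 further summary values per library. Their processing notes name bcl2fastq 2.20.0.422, Bowtie2 2.3.5.1, SAMtools 1.9, HTSeq 0.9.1 and the build hg19/GRCh37. Bowtie2 does not split reads across introns, which bears on levels between genes. Of the reads, 52.7% to 54.2% were counted on genes and 24.6% to 26.2% were set aside for low alignment quality. The strand setting of the counting is not given in the sources used here.

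Counts were tested in edgeR 4.0.16 (R 4.3.3) after filterByExpr (minimum count 10, minimum total 15) and TMM, by the quasi-likelihood test with the line number as a block, since the study's methods describe a paired analysis. P-values were adjusted by Benjamini-Hochberg over 16756 genes, with a threshold of 0.05. The SE given with an edgeR log2 fold change is its absolute value divided by the square root of the F statistic. It restates that test and is no separate estimate. DESeq2 1.42.0 was an alternative. Log2 CPM used a prior count of 2. Exact permutation tests used scipy. Names, exon lengths and positions came from GENCODE 29 (GRCh38) by gene identifier, which may differ from the annotation counted, and promoters from RefSeq.

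Members and lists were chosen with earlier results of these data known. Named genes were the members, the subunits past the filter, the 3 genes of each list with the smallest p, the neighbours and overlaps of the members and the 5 genes most like ITGB5. Some genes that these rules name are not reported here. Lines of a group differed beyond counting error, with chi-square per degree of freedom from 1.92 to 14.2 over 20 pairs. The edgeR and DESeq2 fits were also run on simulated data, and the outcome is not reported here.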

Additional observations from a re-analysis of the deposited data

Results flagged for a closer look

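The highest and lowest of the 5 lines were compared with the rest of their group for 18 integrin subunits, which made 36 groups. In 3 of them a line lay apart by more than 0.71 of the range. ITGAL was high in VEN sens line 2, at 22.6 CPM. ITGAX was low in the same line, at 0.581 CPM, which rests on 12 counts. ITGAM was high in VEN ins line 5, at 5.66 CPM. Chance gives such a gap in about 1 of 20 groups, or 1.8 of 36. Without line number 2 the log2 fold change of ITGAL was -0.43 with an adjusted p of 0.429 by edgeR with the block. That fit called 6 genes, beside 33 with all lines, and 8.41% of tested genes had an unadjusted p under 0.05, beside 16.2%. Whether the high ITGAL value in VEN sens line 2 had a part in this was not tested.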

How the results depend on the processing

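The counts reported (33 genes, 1 member, 0 other genes of the lists, 2 ratios) changed with the settings named here, and the cause was not tested unless given. Lines of equal number did not deviate together. Their correlations were -0.103 to 0.028, and 0 of 10 libraries correlated best with their own number, so the numbers give no pairing by the data. With no replicate block, edgeR called 149 genes, 1 member and 3 list genes. DESeq2 called 217 genes with the block (1 member, 3 list genes) and 739 without it (2 members, 5 list genes). A paired sign-flip of the ratios over the line numbers called 0, since 5 pairs cannot give a p under the threshold.

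RLE size factors called 35 genes (1 member) and library size alone 44 (2 members). At least 10 counts in every library left 28 genes and 0 members. With the length and GC trend taken out, 155 genes were called, 73 higher and 82 lower beside 6 and 27, with 2 members and 2 list genes. With no filter on low counts, 664 genes, 4 members and 6 list genes were called. In that fit the prior degrees of freedom became infinite (10.8 with the filter). Each gene then took the variance of the trend and not its own. Beside the main edgeR fit, the adjusted p was lower for ITGA5 (4.34e-23 against 0.0425) and higher for ITGAV (0.358 against 0.208). The p-values and counts of the fit with no filter are therefore not relied on.

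Leaving out each line number in turn gave 6 to 331 genes, 0 to 3 members and 0 to 7 list genes with the block. The same without the block, chosen after seeing the data, gave 18, 7, 14, 391 and 91 genes, 0 to 3 members and 0 to 7 list genes. The highest counts came without line 4. The ratios past the threshold fell to 0 in each case, as 4 against 4 lines allow few small p-values. ITGA5, ITGAL, ITGB2, ITGA4, ITGAV and ITGB7 were lower in all 18 alternatives, while the sign of ITGB1 and ITGA6 varied. ITGB5 was lower in all 18 too, but it was selected on these counts, so its direction says nothing further. Genes under 100 counts per library, such as ITGA6 and ITGAX, are limited by depth.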
